A study of Mus musculus with 6 samples.

Results

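Pericytes and vascular smooth muscle cells, together called mural cells, wrap the vessels that run through bone and marrow. Rgs5 encodes a GTPase-activating protein that shortens signalling by G protein-coupled receptors, and it is widely used to mark pericytes. The genes described with it encode the ATP-sensitive potassium channel of mural cells (Kcnj8 and Abcc9), the contractile filament of smooth muscle (Acta2, Myh11, Tagln and Cnn1) and surface proteins by which pericytes are recognised (Mcam, Pdgfrb and Cspg4). All probe sets that the platform annotation assigns to exactly 1 of these 10 genes were taken. They were 20 of 45037 probe sets, and the 10 genes were 10 of 18193 with a probe set.

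The arrays measured total RNA of sorted calvarial osteocytes, the cells embedded in bone matrix, from 3 knockout and 3 control samples. Knockout samples came from mice whose estrogen receptor alpha (ERα) alleles were deleted in osteocytes (ERαΔOcy/ΔOcy), and control samples from littermates that the labels call WT and the protocol ERαflox/flox. Mice of both groups were female C57/BL6 animals of 10 to 12 days carrying Dmp1-GFP, a green fluorescent marker for osteocytes. The sorting gate was set to take 10% to 15% of all cells where the marker was present, and it took 0.8% to 1.0% in mice without it. The sources used here give neither the driver of the deletion nor whether control mice carried Cre, and an effect of Cre cannot be told apart from that of ERα loss. Pooling is excluded by the series' design text and mentioned for calvarial tissue in the protocol, so the p-values may measure only a spread between samples that share tissue.

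Osteocyte markers were present: 10 of 11 listed genes passed the filter on low values, among them Dmp1, Sost, Mepe and Phex, and Fgf23 was below it. All 10 mural genes and all 20 of their probe sets also passed. Median signals on the arrays were between 20.2 and 28.6 in knockout and between 18.7 and 22.7 in control samples. Levels below are log2(signal + 16) after quantile normalisation, and each difference is knockout minus control on that scale, which understates changes of dim probe sets. Control replicate 2 stood apart with the lowest skeletal muscle signal. Summed over 18 skeletal muscle markers it was 286.4, against 40042.9 and 33977.5 in control replicates 1 and 3. Knockout replicates 1, 2 and 3 had 5160.5, 4940.8 and 22686.6. In the summed signal of macrophage markers, control replicate 1 was low, at 2642.6 against 10490.7 and 9673.7 in control replicates 2 and 3. Member results that rest on control replicate 2 are given with and without it, and those of other genes only in part. Where it is the lowest control array, leaving it out moves a difference further down by construction.

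The 10 genes fell into 3 patterns. Rgs5, Kcnj8 and Abcc9 lay lower on every knockout array than on any control array. Acta2, Myh11, Tagln, Cnn1 and Mcam were high in control replicates 1 and 3 and low in control replicate 2, with the knockout arrays below control replicates 1 and 3. Pdgfrb and Cspg4 lay at the same level in both groups within the spread between arrays. Over the 6 arrays 9 of the 10 genes had lower means and 1 a higher mean, against 51.7% and 48.3% of all genes tested. With all 6 arrays, 0 member genes passed an adjusted p of 0.05 (limma), as did 0% of the 10916 genes tested in either direction. At an unadjusted p under 0.05 there were 3 lower and 0 higher members, against 4.69% lower and 5.85% higher over all genes. In a bulk sample, fewer cells of a type and less RNA per cell cannot be told apart.

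**Figure D1:**
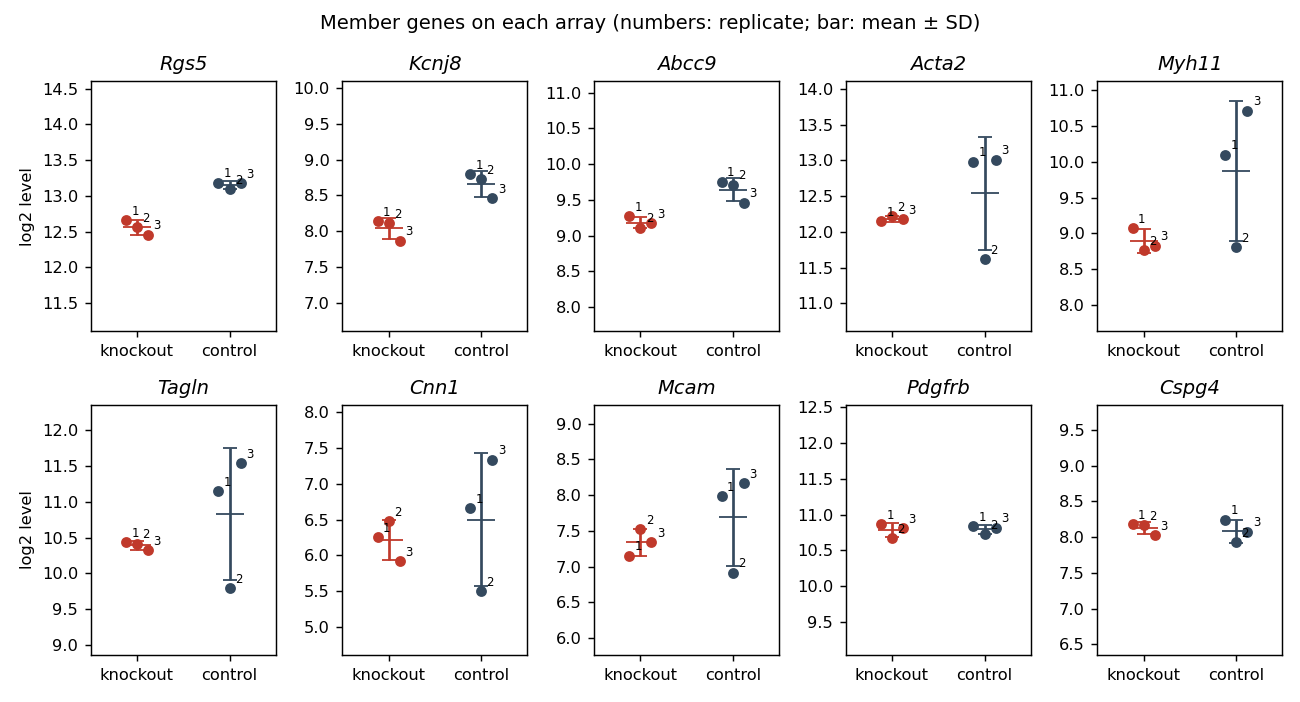
Levels of the 10 genes on each array, on the log2(signal + 16) scale after quantile normalisation, for 3 knockout (left) and 3 control (right) samples. Points are arrays numbered by replicate, and bars are the mean ± SD. Rgs5, Kcnj8 and Abcc9 have groups that do not overlap, while control replicate 2 lies far below the other control arrays for Acta2, Myh11, Tagln, Cnn1 and Mcam.

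At its brightest probe set, 1417466_at, Rgs5 had log2 levels of 12.66, 12.56 and 12.46 in knockout replicates 1, 2 and 3, and of 13.18, 13.09 and 13.18 in control replicates 1, 2 and 3. The highest knockout array lay below the lowest control array. The means were 12.56 ± 0.10 in knockout and 13.15 ± 0.05 in control samples (SD, n = 3 each), a difference of -0.59 ± 0.07 (SE, limma adjusted p = 0.120), or 1.51-fold lower. In the deposited signal the same probe set read 6620.9, 5932.3 and 6619.8 in knockout and 9349.5, 8236.5 and 8010.8 in control samples, again without overlap. The difference ranged from -0.64 to -0.54 with any 1 array left out. Its adjusted p was 0.0137 without control replicate 2, and between 0.142 and 0.500 without any other array. The unadjusted p of Rgs5 (limma) was 6.26e-05 with all arrays and 8.43e-05 without control replicate 2, so it did not become smaller. The adjusted p fell because more of all genes had small p-values then. Of all genes 1.88% passed as lower and 0.788% as higher without that array, against 0% with all arrays.

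The other 3 probe sets of Rgs5 were lower in knockout samples too, with no overlap between groups. The probe set 1420942_s_at had 1185.1, 969.5 and 993.3 units of deposited signal in knockout and 2263.5, 2040.0 and 1844.8 in control samples, and differed by -1.10 ± 0.15 on the log2 scale (SE), 2.15-fold lower. It was the only 1 of the 19 member probe sets tested under the deposited scaling that passed the threshold (-0.96, limma adjusted p = 0.0177), against 0.0074% lower and 0.252% higher of all probe sets tested there. The remaining probe sets, 1420940_x_at and 1420941_at, differed by -0.73 ± 0.11 and -0.76 ± 0.13 (SE). In the array maker's naming, the suffix _s_at marks probes shared by several transcripts and _x_at probes that can bind other sequences. The brightest probe sets of Acta2 and Abcc9 carry _s_at as well.

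Kcnj8 encodes Kir6.1, the pore of the vascular ATP-sensitive potassium channel, whose opening hyperpolarises mural cells. Its levels were 8.14, 8.11 and 7.87 in knockout replicates 1, 2 and 3, and 8.80, 8.72 and 8.46 in control replicates 1, 2 and 3. The groups did not overlap, although control replicate 3 lay nearer to the knockout arrays than the other control arrays. Kcnj8 averaged 8.04 ± 0.15 in knockout and 8.66 ± 0.18 in control samples (SD, n = 3 each), a difference of -0.62 ± 0.13 (SE, limma adjusted p = 0.240), 1.54-fold lower.

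Abcc9 encodes SUR2, the sulfonylurea receptor subunit that joins Kir6.1 in that channel. Its brightest probe set had levels of 9.27, 9.11 and 9.17 in knockout replicates 1, 2 and 3, and of 9.76, 9.71 and 9.46 in control replicates 1, 2 and 3. The groups did not overlap here or at the other 2 probe sets of the gene. Abcc9 differed by -0.46 ± 0.11 (SE, limma adjusted p = 0.284), 1.37-fold lower, and the other probe sets differed by -0.47 ± 0.17 and -0.46 ± 0.15 (SE). In the deposited signal, before the quantile normalisation used here, the brightest probe set had 701.9 units in knockout replicate 3 and 599.3 in control replicate 3, so the groups overlapped there. Neither channel gene passed the threshold without control replicate 2 (limma adjusted p = 0.0935 for Kcnj8 and 0.134 for Abcc9), nor with any other array left out. Under the deposited scaling, where the median of all genes was 0.14 in place of -0.01, Rgs5, Kcnj8 and Abcc9 differed by -0.41, -0.48 and -0.30. Kcnj8 and Abcc9 are neighbours on chromosome 6, with 0 annotated genes between them in the RefSeq table.

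The sequences before the starts of the 3 genes that lay lower together, and of Acta2 for the contractile pattern, are shown for what they share. Each is the 250 bases before the gene start in RefSeq, build GRCm38.p6, written 5′ to 3′ along the gene's own strand. The windows are chr1:169655251-169655500 (+ strand) for Rgs5, chr6:142571615-142571864 (- strand) for Kcnj8, chr6:142702275-142702524 (- strand) for Abcc9 and chr19:34255374-34255623 (- strand) for Acta2. Capitals mark CArG-like matches, explained after the sequences.
Rgs5: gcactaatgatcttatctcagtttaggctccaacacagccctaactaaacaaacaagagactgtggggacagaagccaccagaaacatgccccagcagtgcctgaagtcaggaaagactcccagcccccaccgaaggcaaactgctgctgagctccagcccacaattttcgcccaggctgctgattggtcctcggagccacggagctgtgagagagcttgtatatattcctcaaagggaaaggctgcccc
Kcnj8: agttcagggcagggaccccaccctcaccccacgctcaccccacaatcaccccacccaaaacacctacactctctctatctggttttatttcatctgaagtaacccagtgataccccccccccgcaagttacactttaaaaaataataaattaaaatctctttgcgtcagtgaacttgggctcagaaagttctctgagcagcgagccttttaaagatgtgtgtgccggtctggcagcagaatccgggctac
Abcc9: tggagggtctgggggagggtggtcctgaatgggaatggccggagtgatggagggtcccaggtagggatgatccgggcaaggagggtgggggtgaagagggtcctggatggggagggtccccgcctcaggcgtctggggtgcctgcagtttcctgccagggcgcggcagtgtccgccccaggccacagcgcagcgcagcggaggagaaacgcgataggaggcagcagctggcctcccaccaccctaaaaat
Acta2: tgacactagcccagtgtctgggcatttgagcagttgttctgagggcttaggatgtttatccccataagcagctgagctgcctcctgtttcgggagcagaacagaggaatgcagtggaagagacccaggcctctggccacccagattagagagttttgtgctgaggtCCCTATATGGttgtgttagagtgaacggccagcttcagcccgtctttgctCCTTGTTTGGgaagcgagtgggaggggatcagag
The CArG box is the element bound by serum response factor, the transcription factor of smooth muscle contractile genes. Its strict form, searched on both strands, was in 0 of the 7 member windows in the table and in 1.47% of 32851 windows. A CArG-like match, which allows 1 G or C among the central A and T letters, was found in Acta2 alone among those 7, at CCCTATATGG and CCTTGTTTGG, and in 8.59% of all windows. The palindromic estrogen response element GGTCANNNTGACC was in 0 of the 7 windows and in 0.0639% of all. These are matches of letters in short windows, and no binding was measured. Tagln, Myh11 and Pdgfrb had no window printed or searched here.

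Acta2, smooth muscle alpha-actin, had levels of 12.15, 12.22 and 12.17 in knockout replicates 1, 2 and 3, and of 12.98, 11.62 and 13.01 in control replicates 1, 2 and 3. The knockout arrays lay close together, while control replicate 2 lay below all of them and the other control arrays above. The difference over all 6 arrays was -0.36 ± 0.34 (SE, limma adjusted p = 0.751), with a 95% interval from -1.15 to 0.44. Without control replicate 2 it was -0.82 ± 0.07 (SE, limma adjusted p = 0.00581), 1.76-fold lower. It was -0.13 without control replicate 1 and -0.12 without control replicate 3 (limma adjusted p = 0.915 and 0.935). The second probe set, 1444105_at, also had control replicate 2 lowest and control replicates 1 and 3 highest, and differed by -0.35 ± 0.31 (SE). The third, 1456658_at, had signals of 5.7 to 19.9 on all arrays, too dim to rank.

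Myh11 encodes the myosin heavy chain of smooth muscle. Its levels were 9.08, 8.76 and 8.83 in knockout replicates 1, 2 and 3, and 10.10, 8.81 and 10.71 in control replicates 1, 2 and 3. Control replicate 2 lay within the knockout range. Myh11 differed by -0.98 ± 0.42 (SE, limma adjusted p = 0.475), and by -1.52 ± 0.19 (SE, limma adjusted p = 0.0136) without control replicate 2, 2.87-fold lower. Without control replicate 1 or 3 it differed by -0.87 or -0.56 (limma adjusted p = 0.538 and 0.643). Its other probe set read signals of only 3.3 to 33.4 and differed by -0.53 ± 0.35 (SE).

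Tagln encodes transgelin, an actin-binding protein of smooth muscle. It had 10.44, 10.41 and 10.32 in knockout replicates 1, 2 and 3, and 11.15, 9.79 and 11.54 in control replicates 1, 2 and 3. Tagln differed by -0.44 ± 0.39 (SE, limma adjusted p = 0.734), and by -0.95 ± 0.12 (SE, limma adjusted p = 0.0140) without control replicate 2. The difference of Tagln was -0.27 without control replicate 1 and -0.08 without control replicate 3 (limma adjusted p = 0.847 and 0.960). Cnn1, calponin 1, which binds actin and restrains smooth muscle myosin, had 6.25, 6.47 and 5.92 in knockout replicates 1, 2 and 3, and 6.66, 5.50 and 7.34 in control replicates 1, 2 and 3. It differed by -0.28 ± 0.42 (SE, limma adjusted p = 0.850), by -0.79 without control replicate 2 (adjusted p = 0.165) and by 0.14 without control replicate 3, so its direction rested on single control arrays.

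Mcam encodes CD146, an adhesion molecule of mural and endothelial cells, and it followed the contractile genes. Its levels were 7.15, 7.52 and 7.35 in knockout replicates 1, 2 and 3, and 7.98, 6.92 and 8.17 in control replicates 1, 2 and 3. Mcam differed by -0.35 ± 0.31 (SE, limma adjusted p = 0.725), and by -0.74 ± 0.14 (SE, limma adjusted p = 0.0444) without control replicate 2. Leaving out control replicate 1 or 3 gave -0.20 or -0.11 (limma adjusted p = 0.856 and 0.929). With control replicate 2 left out, 5 of the 10 genes passed as lower (Rgs5, Acta2, Myh11, Tagln and Mcam) and 0 as higher. Of all genes tested, 1.88% passed as lower and 0.788% as higher there. For Acta2, Myh11, Tagln and Mcam the array left out was itself the lowest control array. Leaving it out widened their differences and narrowed their spread by construction, so their p-values in that setting add no support. The median difference of the 10 genes was -0.40 with all arrays and -0.68 without control replicate 2, beside -0.01 and -0.0045 over all genes. It was -0.24 without control replicate 1 and -0.11 without control replicate 3.

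**Figure D2:**
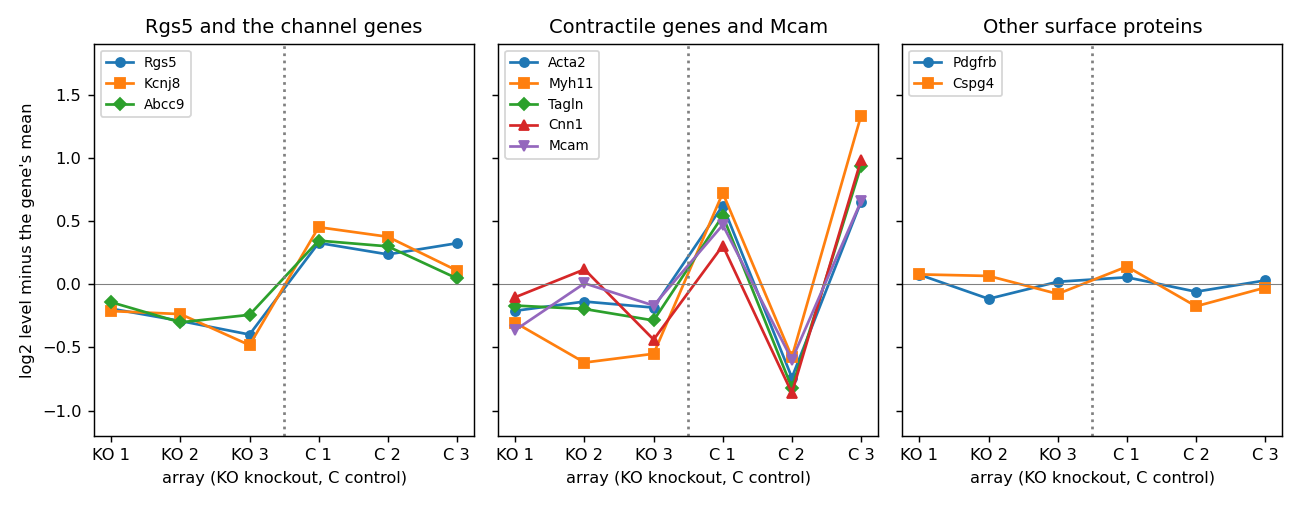
Level of each gene on each array minus its mean over the 6 arrays (log2), with knockout arrays (KO) left of the dotted line and control arrays (C) right of it. Rgs5, Kcnj8 and Abcc9 stay above 0 on all 3 control arrays. The 4 contractile genes and Mcam lie between -0.86 and -0.58 in control replicate 2, and Pdgfrb and Cspg4 stay within 0.18 of 0.

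Skeletal muscle and adventitial fibroblast markers shared the low control replicate 2 of the contractile pattern, and not all lists of other cells did. The mean centred level of the 4 contractile genes was -0.20, -0.21 and -0.37 in knockout replicates 1, 2 and 3, and 0.55, -0.75 and 0.97 in control replicates 1, 2 and 3. That of 14 tested skeletal muscle markers was -0.69, -0.62 and 0.71 in knockout, and 1.92, -3.19 and 1.87 in control samples. The control arrays had the same low replicate in both. Among knockout arrays, replicate 3 was high in skeletal muscle and not in the contractile genes. The level of 10 adventitial fibroblast markers was -0.29, -0.24 and -0.13 in knockout, and 0.81, -0.86 and 0.72 in control samples, with the same low replicate. In control replicates 1, 2 and 3 macrophage markers lay at -1.34, 0.63 and 0.62, and osteoblast markers at -0.04, 0.05 and -0.05. Osteocyte markers lay at 0.08, -0.25 and 0.31 there, and endothelial markers at -0.14, -0.23 and 0.24.

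The summed signal of the 18 skeletal muscle markers with a probe set lay between 4940.8 and 22686.6 in knockout and between 286.4 and 40042.9 in control samples. That of the 10 fibroblast markers lay between 26741.8 and 31330.9 in knockout samples. It was 33977.5, 26943.1 and 27555.2 in control replicates 1, 2 and 3, so control replicate 2 lay near control replicate 3 in this sum. In both lists 0 genes were at 0 on any array. Without control replicate 2, 7 of 14 tested skeletal muscle markers and 6 of 10 fibroblast markers passed as lower, against 1.88% of all genes. The skeletal muscle median was -0.41 with all arrays, -2.27 without control replicate 2, and 0.35 without control replicate 1 or 3. The fibroblast median was -0.41 with all arrays, -1.09 without control replicate 2, and -0.12 and -0.15 without control replicates 1 and 3. The part of these cells in the contractile result was not tested. For Rgs5, Kcnj8 and Abcc9, control replicate 2 lay at 0.24, 0.37 and 0.30 above the gene's mean, on the side of the other control arrays. The part of other cells in the differences of Rgs5, Kcnj8 and Abcc9 was not tested either.

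Pdgfrb, the receptor through which PDGF-B recruits pericytes, is also made by other mesenchymal cells. It had 10.86, 10.67 and 10.80 in knockout replicates 1, 2 and 3, and 10.84, 10.73 and 10.81 in control replicates 1, 2 and 3. The groups overlapped, with a difference of -0.02 ± 0.08 (SE, limma adjusted p = 0.965) and a 95% interval from -0.21 to 0.18. Its sign turned under 4 of the alternative settings. The other probe set differed by 0.01 ± 0.11 (SE).

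Cspg4 encodes the proteoglycan NG2 of the pericyte surface. Its levels were 8.18, 8.17 and 8.02 in knockout replicates 1, 2 and 3, and 8.24, 7.93 and 8.07 in control replicates 1, 2 and 3. Cspg4 differed by 0.04 ± 0.11 (SE, limma adjusted p = 0.919), with a 95% interval from -0.22 to 0.31, and by -0.03 without control replicate 2. The other probe set differed by 0.14 ± 0.16 (SE).

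Levels were also set against Pdgfrb on the same array. From the deposited signals, with 16 added to each, the log2 ratio of Rgs5 to Pdgfrb, centred over the arrays, was -0.21, -0.15 and -0.50 in knockout replicates 1, 2 and 3, and 0.26, 0.30 and 0.30 in control replicates 1, 2 and 3. All knockout arrays lay below all control arrays. The ratio of Kcnj8 to Pdgfrb averaged -0.32 ± 0.18 in knockout and 0.32 ± 0.18 in control samples, and that of Abcc9 to Pdgfrb averaged -0.23 ± 0.03 in knockout and 0.23 ± 0.17 in control samples (SD, n = 3 each). These ratios were chosen after the values were seen and are given without a test. Rgs5, Kcnj8 and Abcc9 were already known to be lower and Pdgfrb to be level. The ratios therefore restate those results and add no further support.

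**Figure D3:**
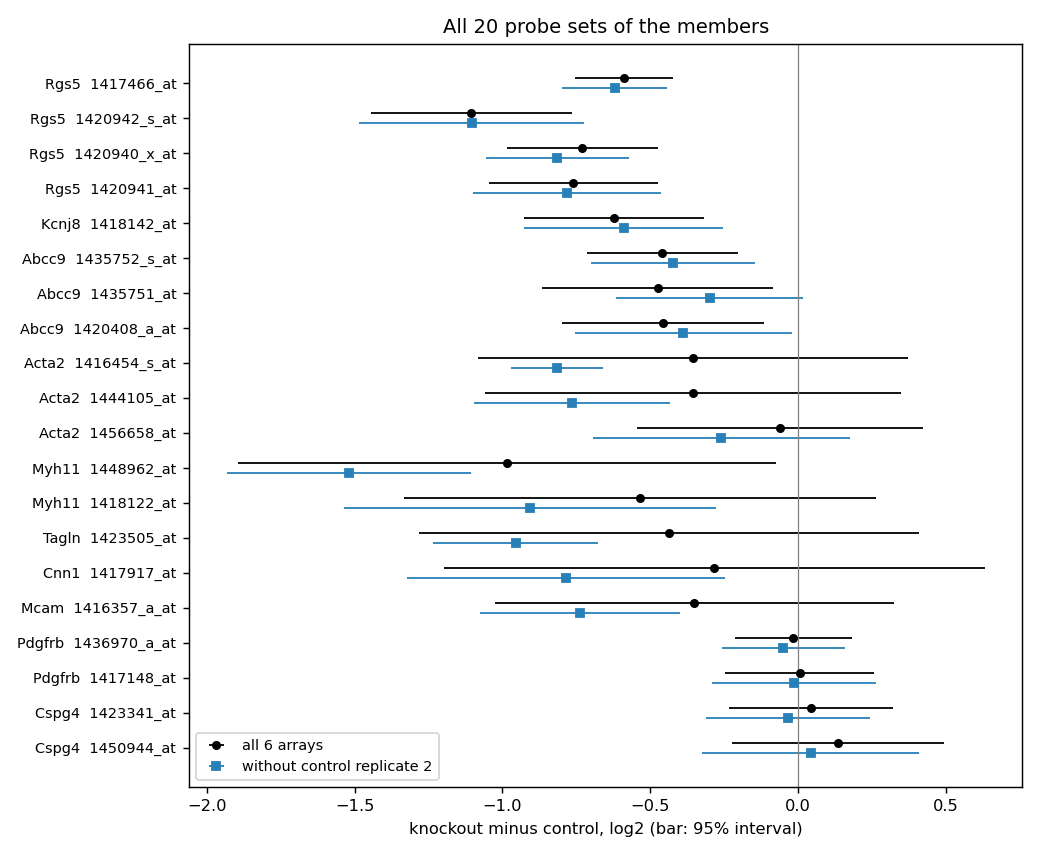
Difference between knockout and control (log2) for each of the 20 probe sets, with its 95% interval from limma, over all 6 arrays (circles) and without control replicate 2 (squares). The 8 probe sets of Rgs5, Kcnj8 and Abcc9 lie between -1.10 and -0.46 with all arrays, and the intervals of the Acta2, Tagln, Cnn1 and Mcam probe sets cross 0 with all arrays.

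Probe set by probe set, 17 of the 20 were lower and 3 higher, against 50.2% and 49.8% of 27023 probe sets tested. Groups did not overlap for 8 lower and 0 higher member probe sets, against 7.27% and 9.41% of all. At an unadjusted p under 0.05, 9 were lower and 0 higher, against 4.31% and 6.25% of all. The 8 without overlap were all 4 of Rgs5, all 3 of Abcc9 and the 1 of Kcnj8. In the deposited signal 5 were lower and 1 higher without overlap, against 1.35% and 12.6% of all tested. The 5 were those of Rgs5 and Kcnj8, the 1 was 1450944_at of Cspg4, and all 3 of Abcc9 overlapped. Over genes, 3 lower and 0 higher members had groups without overlap, against 7.76% and 9.23% of all genes. With all 6 arrays 0 member probe sets passed the threshold (limma), as did 0% of all probe sets. Without control replicate 2, 9 passed as lower (4 of Rgs5, 2 of Acta2 and 1 each of Myh11, Tagln and Mcam) and 0 as higher, against 1.14% and 0.762% of all probe sets. A 2-sided exact permutation test gave p = 0.1 for Rgs5, Kcnj8 and Abcc9, the smallest that 3 arrays against 3 allow, and between 0.3 and 0.8 for the other 7 genes.

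Of 17 other tested markers of pericytes and vascular smooth muscle, 14 lay lower and 3 higher, against 51.7% and 48.3% of all genes. Their median difference was -0.42 beside -0.01 over all genes. Without control replicate 1 or 3 that median was -0.19 or -0.18. None passed the threshold over all genes (limma). At an unadjusted p under 0.05, 7 were lower and 1 higher, against 4.69% and 5.85% of all genes. Groups did not overlap for 5 lower and 1 higher, against 7.76% and 9.23% of all genes. The 3 with the smallest p, named for that, were among the 5 lower. Gja4, a gap junction protein of vessel walls, averaged 6.83 ± 0.17 in knockout and 7.71 ± 0.26 in control samples (SD, n = 3 each). It differed by -0.88 ± 0.16 (SE, limma adjusted p = 0.195). Higd1b, a pericyte marker, differed by -0.60 ± 0.15 and Notch3, the Notch receptor of mural cells, by -0.62 ± 0.16 (SE). Their adjusted p values with all arrays were 0.291 and 0.315 (limma). Without control replicate 2, 7 of the list passed as lower, against 1.88% of all genes, Gja4 and Notch3 among them (limma adjusted p = 0.0234 and 0.0188).

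The smooth muscle contractile apparatus beyond the members counted 17 tested genes, 14 lower and 3 higher. Their median was -0.30, and 0 passed (limma, 1 lower and 1 higher at an unadjusted p under 0.05, against 4.69% and 5.85% of all genes). Without control replicate 2 the median was -0.73 and 10 passed as lower, against 1.88% of all genes. The median was -0.22 without control replicate 1 and -0.11 without control replicate 3. Pln, phospholamban, which inhibits the calcium pump of the sarcoplasmic reticulum, had 5.45, 5.24 and 5.38 in knockout replicates 1, 2 and 3, and 6.94, 5.48 and 7.08 in control replicates 1, 2 and 3. It differed by -1.14 ± 0.39 (SE, limma adjusted p = 0.407), and by -1.65 without control replicate 2 (limma adjusted p = 0.00581). Synpo2, an actin-binding protein, differed by -0.63 ± 0.30 (SE), and by -0.99 without control replicate 2 (limma adjusted p = 0.0297). Cnn3, a calponin of non-muscle cells, differed by 0.19 ± 0.07 (SE). Several of these genes, such as Des, Casq2 and Pln, are also made by striated muscle.

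Regulators of mural cell transcription went both ways. Among 12 tested, 8 lay higher and 4 lower, the median was 0.08 and 0 passed (limma). At an unadjusted p under 0.05, 1 was higher and 2 lower, against 5.85% and 4.69% of all genes. Mef2c, a transcription factor of muscle and bone cells, was 9.71, 9.61 and 9.53 in knockout replicates 1, 2 and 3, and 10.08, 10.15 and 10.01 in control replicates 1, 2 and 3, with no overlap and a difference of -0.46 ± 0.09 (SE). Ebf1 differed by -0.29 ± 0.11 and Mrtfb, a coactivator of serum response factor, by 0.22 ± 0.10 (SE).

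**Figure D4:**
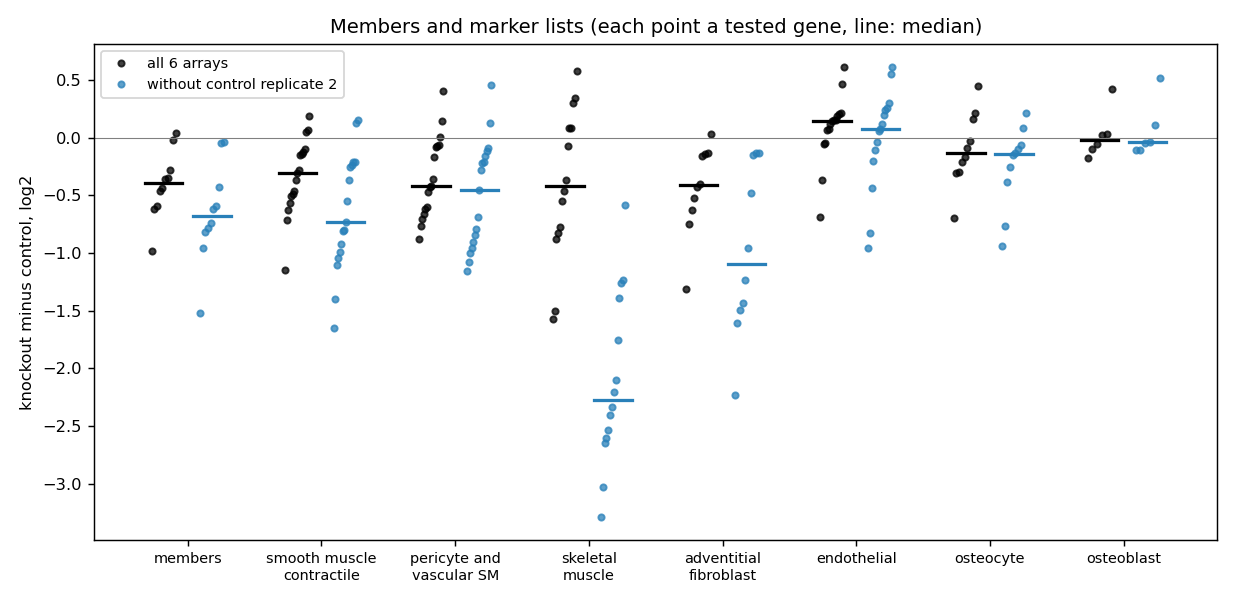
Difference between knockout and control (log2) for each tested gene of the members and of 7 marker lists, over all 6 arrays (black) and without control replicate 2 (blue), with lines at the medians. The skeletal muscle median is -0.41 with all arrays and -2.27 without control replicate 2, and that of pericyte and vascular smooth muscle (SM) markers is -0.42 and -0.45. Without control replicate 1 or 3 (not drawn), the skeletal muscle median is 0.35 in both cases. The pericyte and vascular SM median is then -0.19 or -0.18.

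The relatives of Rgs5 in the R4 family of RGS proteins did not share 1 direction. Of 5 tested, 3 were higher and 2 lower, and 0 were past the threshold (limma). There were 2 in each direction at an unadjusted p under 0.05, against 5.85% higher and 4.69% lower of all genes. Rgs4, which is also found in pericytes, had 8.13, 7.77 and 7.71 in knockout replicates 1, 2 and 3, and 8.89, 8.74 and 9.43 in control replicates 1, 2 and 3. Its groups did not overlap, and it differed by -1.15 ± 0.20 (SE), 2.21-fold lower. Leaving out control replicate 2 took it past the threshold (limma adjusted p = 0.0212). Rgs2 differed by -0.52 ± 0.10 and Rgs3 by 0.24 ± 0.09 (SE).

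Paralogs of the contractile members were measured as well. Calponin and transgelin paralogs were higher for 3 of 3 tested, against 48.3% of all genes, and 0 passed (limma). At an unadjusted p under 0.05, 2 were higher and 0 lower, against 5.85% and 4.69% of all genes. Tagln2 differed by 0.65 ± 0.27 (SE) with overlapping groups, and by 0.36 without control replicate 2 (limma adjusted p = 0.401). Cnn2 differed by 0.05 ± 0.09 (SE). Of the 7 tested paralogs of actin and myosin heavy chain, 4 were higher and 3 lower, and 0 passed. Without control replicate 2, 1 of them passed as lower, against 1.88% of all genes. Myh10, a non-muscle myosin heavy chain, had 9.74, 9.83 and 9.76 in knockout replicates 1, 2 and 3, and 9.44, 9.19 and 9.35 in control replicates 1, 2 and 3, a difference of 0.45 ± 0.10 (SE) without overlap. Myh9 differed by 0.08 ± 0.09 and Actg2, the enteric smooth muscle actin, by -0.14 ± 0.21 (SE).

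Among the PDGF ligands and the other PDGF receptor, 4 of 5 tested genes lay lower and 1 higher, at a median of -0.12, and 0 passed (limma, 0 at an unadjusted p under 0.05). Pdgfra differed by -0.18 ± 0.12, Pdgfd by -0.34 ± 0.26 and Pdgfa by -0.12 ± 0.13 (SE), each with overlapping groups. Kcnj11, which encodes the channel pore Kir6.2, was the 1 tested paralog of the channel genes and differed by -0.44 ± 0.41 (SE), with knockout replicate 3 at 6.17 below all other arrays.

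Endothelial cells line the vessels that mural cells cover. Of their 15 tested markers 11 lay higher and 4 lower, at a median of 0.14, and 0 passed (limma). At an unadjusted p under 0.05, 2 were higher and 1 lower, against 5.85% and 4.69% of all genes. Erg, an endothelial transcription factor, differed by 0.62 ± 0.14 and Cdh5, VE-cadherin, by 0.47 ± 0.14 (SE). Esam, an endothelial adhesion molecule named after its values were seen, differed by -0.69 ± 0.24 (SE). Without control replicate 2, Esam at -0.95 and Tek at -0.83 passed as lower (limma adjusted p = 0.0308 and 0.0293), and 0 endothelial markers passed as higher. The summed signal of 16 endothelial markers lay between 1242.1 and 1347.8 in knockout and between 900.4 and 1345.9 in control samples. Among osteocyte markers 7 of 10 tested lay lower and 3 higher, against 51.7% and 48.3% of all genes, and 0 passed (limma). At an unadjusted p under 0.05, 2 were lower and 0 higher. Dkk1 differed by -0.70 ± 0.20 and Dmp1 by -0.30 ± 0.10 (SE). Without control replicate 2, 2 passed as lower, Dkk1 among them (limma adjusted p = 0.0136), against 1.88% of all genes. Among osteoblast markers 3 of 6 lay lower and 3 higher, with Alpl at 0.42 ± 0.11 and Sp7 at -0.17 ± 0.10 (SE). Alpl passed as higher without control replicate 2 (limma adjusted p = 0.0351).

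The 6 values of a gene, centred on its mean, were compared with those of Rgs5 by the root mean square distance. Members and symbols of unnamed transcripts (such as Gm, Rik and LOC) were passed over in naming the nearest genes, here and for Acta2. The nearest named were Ccdc71l at 0.078, Adap2 at 0.079, Cipc at 0.081 and Ripor2 and Efl1 at 0.085 each on the log2 scale. Kcnj8 at 0.124 and Abcc9 at 0.135 ranked 34 and 53 among all 10915 other tested genes. Pdgfrb ranked 3158, Cspg4 4525 and Mcam 8002, and the contractile genes between 9085 (Acta2) and 10332 (Myh11). The distance grows with the size of a gene's swings, so level genes rank nearer than genes with large ones. The patterns were seen in these same values, so the ranks add no further support. Nearest to Acta2 were Rragd at 0.070, Tek at 0.084, Lpl at 0.089, Ror1 at 0.105 and Tpm1 at 0.106. Mcam and Tagln ranked 14 and 23 in distance from Acta2, Cnn1 163 and Myh11 968. Tek is an endothelial receptor kinase and Tpm1 a tropomyosin.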

How the data were processed

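The authors deposited a linear intensity for each probe set on each array. The software GCOS is named per the submitters' processing notes, without a version. The background correction and the scaling are not given in the sources. No detection calls were used, and dim probe sets carry no bound.

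From these intensities log2(signal + 16) was computed and quantile normalised, because array medians differed by 0.362 (log2), over a limit of 0.25. After removal of 64 controls from the 45101 probe sets, the platform annotation gave 1 gene for 34945, several for 932 and none for 9160, and gene identifiers were matched to current RefSeq symbols. The brightest probe set stood for its gene. The lowest 40% of genes (under a level of 5.37) and, in a separate fit, of probe sets (under 4.83) were left out. Knockout was compared with control in limma 3.58.1 (R 4.3.3), using lmFit and a trended eBayes, 2-sided, Benjamini-Hochberg adjustment at 0.05 over all 10916 genes or 27023 probe sets, and no covariate. The number of arrays limits the precision.

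On simulated data with 10916 genes and 200 changed, the fit recovered 22.5% of 1.5-fold, 71.9% of 2-fold and 97.2% of 4-fold changes. False calls averaged 5.95 per run. The simulated noise was independent for each gene, and no array stood apart as control replicate 2 did. Recovery on the real arrays, where 0 genes passed, is therefore not known from it. The members and 17 gene lists were chosen with earlier results of these data known. Named genes are all members, up to 3 per related list (2 per list of other cells) with the smallest p, and the 5 nearest profiles to Rgs5 and to Acta2; Des and Casq2 were named for their expression in striated muscle. The alternatives were the scaling, pseudocount, filter, summary of probe sets, array weights, trend, replicate block and leaving out each array. Same-numbered replicates did not deviate together (Pearson r of deviations -0.38, 0.10 and -0.04 across genes, for numbers 1, 2 and 3), so the numbers were not used as pairs.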

Additional observations from a re-analysis of the deposited data

How the results depend on the processing

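Among the 10 alternative settings that kept all 6 arrays, 0 member genes passed the threshold in limma, and 1 member probe set passed, under the deposited scaling. With 1 array left out, between 0 and 5 member genes and between 0 and 9 member probe sets passed as lower, the higher numbers without control replicate 2 and 0 without any other array, and 0 passed as higher. The cause was not tested. The deposited scaling moved the median of all genes to 0.14, from -0.01, and the member median to -0.24, with 0 genes called lower and 30 higher over all genes. With the replicate block 0 member genes passed, and Rgs5 had an adjusted p of 0.445. Rgs5, Kcnj8, Abcc9, Acta2, Myh11, Tagln and Mcam were lower under every alternative run. Pdgfrb turned to 0.16 with the deposited scaling, 0.0599 with median scaling, and ranged from -0.0566 to 0.0389 with 1 array left out, above 0 without knockout replicate 2 or control replicate 1 (0.00773). Cspg4 ranged from -0.0341 without control replicate 2 to 0.12 with 1 array left out, and Cnn1 from -0.79 without control replicate 2 to 0.14 without control replicate 3. With 3 arrays a group and no detection calls, the dim probe sets of Acta2 and Myh11 carry little information.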

Other observations

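Markers of cells that are neither mural nor osteogenic differed in their own ways. Of 12 tested chondrocyte markers 11 lay higher and 1 lower, with Acan at 1.44 ± 0.18 and Col9a3 at 1.73 ± 0.24 (SE), and their centred level in control replicate 2, at -0.85, lay near that of control replicate 3, at -0.66. Of 10 macrophage markers 5 lay higher and 5 lower, with Lyz2 at 0.58 ± 0.50 and Cd68 at 0.31 ± 0.52 (SE), and it was control replicate 1 that lay lowest there, at -1.34. Of 2 tested Schwann cell markers, Pmp22 differed by -0.06 ± 0.13 and Mbp by 0.00 ± 0.15 (SE). Slc4a1, the 1 tested erythroid marker, differed by -0.09 ± 0.23 (SE). In these lists 0 genes passed the threshold with all 6 arrays (limma). Without control replicate 2, 4 chondrocyte markers passed as higher, against 0.788% of all genes. An unadjusted p under 0.05 was found for 10 higher and 1 lower chondrocyte markers, and for 0 markers of the other lists. Over all genes the shares were 5.85% higher and 4.69% lower.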
